A study of Mus musculus with 12 samples.

Results

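The genes of intraflagellar transport and of the BBSome were examined in the main olfactory epithelium (MOE) of H2be-KO mice and of WT mice, all aged 6 months, whose whole MOE had been used. The rule for members used gene names only, though it was set with earlier results of these data known. A probe set entered where every gene symbol given to it by the platform annotation named an Ift or Bbs gene, a Ttc30 gene, Ttc8, Arl3, Arl6, Arl13b, Bbip1, Kif3a, Kif3b, Kif3c, Traf3ip1, Tulp3, Cep290, Dync2h1 or Dync2li1. The rule found 35 probe sets among the 28944 experimental probe sets of the array, naming 35 genes, and no probe set carried the symbol Arl6, Arl13b or Bbip1 alone. All 35 had a mean log2 signal above 5 over the 12 arrays, the level used for testing, which 28151 probe sets passed. In H2be-KO mice the coding sequence of H2be, an H2B histone variant gene of olfactory sensory neurons that the annotation lists as H2bc21, is replaced by one for the red fluorescent protein mCherry carrying the membrane tag of Gap43. The line was made in embryonic stem cells and its founders were crossed to C57Bl/6. There were 6 arrays of each genotype, each of RNA pooled from 2 mice, and the design states an equal mixture of males and females.

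Intraflagellar transport carries cargo along the axoneme, the microtubule core of a cilium, in trains built of IFT-B and IFT-A particles. Kinesin-2 hauls the trains towards the tip and dynein-2 brings them back, while the BBSome, a coat-like complex, links membrane proteins to the trains and takes them out of the cilium. In the MOE this machinery serves the long sensory cilia of olfactory neurons, where odorant receptors, adenylyl cyclase and the cyclic nucleotide-gated channel sit, and also the motile cilia of respiratory cells in neighbouring epithelium, and loss of BBSome proteins is known to impair olfaction.

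The H2be probe set read 11.65 ± 0.12 (log2 signal, mean ± SD, n = 6) in the knockout and 11.89 ± 0.17 (n = 6) in WT. The difference was −0.24 (limma p = 0.0233, adjusted p = 0.753, exact permutation p = 0.0195). It lost its call when replicate 4 or 6 of H2be-KO, or replicate 3 of WT, was left out. The position of its probes relative to the replaced sequence is unknown here, so the signal is a limited check of the labels. Pairs of arrays correlated at r = 0.951 to 0.985 over all tested probe sets, and WT replicate 4 had the lowest mean correlation with the other arrays (0.963). Y-linked genes read 1.61 to 2.28 in replicates 1 to 3 and 9.35 to 9.71 in replicates 4 to 6 of both genotypes, so sex was balanced between them. The defining markers of mature olfactory neurons were bright, with Omp at 12.90 in both genotypes and Cnga2 at 12.20 in H2be-KO and 12.11 in WT, while Foxj1, the regulator of motile ciliogenesis, read 9.27 and 9.45.

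No member differed between genotypes at an adjusted p under 0.05 (limma, adjusted p 0.753 to 0.997), nor did any of the 28151 probe sets. At an unadjusted p under 0.05, 3 of the 35 members were higher in H2be-KO (8.57%), against 3.78% of all tested probe sets, and 1 was lower (2.86%), against 1.77%. Both directions together made up 5.55% of all tested probe sets. The exact permutation test over all 924 ways of choosing 6 of 12 arrays called 4 members higher (Ttc30a1, Ttc30b, a probe set shared by the Ttc30 genes, and Ift52) and 1 lower (Ift27), where it called 3.98% and 2.03% of all probe sets. The members called higher by limma were Ttc30a1, Cep290 and Ttc30b, and the member called lower was Ift27. The Ttc30 probe sets may share probes and are not independent observations, yet the shares of members called higher count each of them. In whole tissue, fewer cells of a kind and less RNA per cell cannot be told apart, and each array is a pool, so that p-values measure the spread between pools.

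The differences were small and leaned to one side. Of the 35 members, 27 had a positive difference of H2be-KO less WT (77.1%), against 56.2% of all tested probe sets, and the median was 0.10 on the log2 scale against 0.02 for all. Differences ran from −0.28 to 0.35, with standard errors from 0.07 to 0.15. For 31 of the 35, the 95% interval lay wholly within 0.5 log2 units of zero on both sides, and the widest bounds of any member were −0.51 and 0.64. Deposited values were scaled to each other by the authors, so each difference is relative to the bulk of the signal. After a further quantile normalization the median of all probe sets was −0.00057 and that of the members 0.06, with 2 members higher and 1 lower where 2.94% and 3.19% of all were. Centring each array on its median gave the members the same counts, against 3.18% and 2.26% of all.

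**Figure D1:**
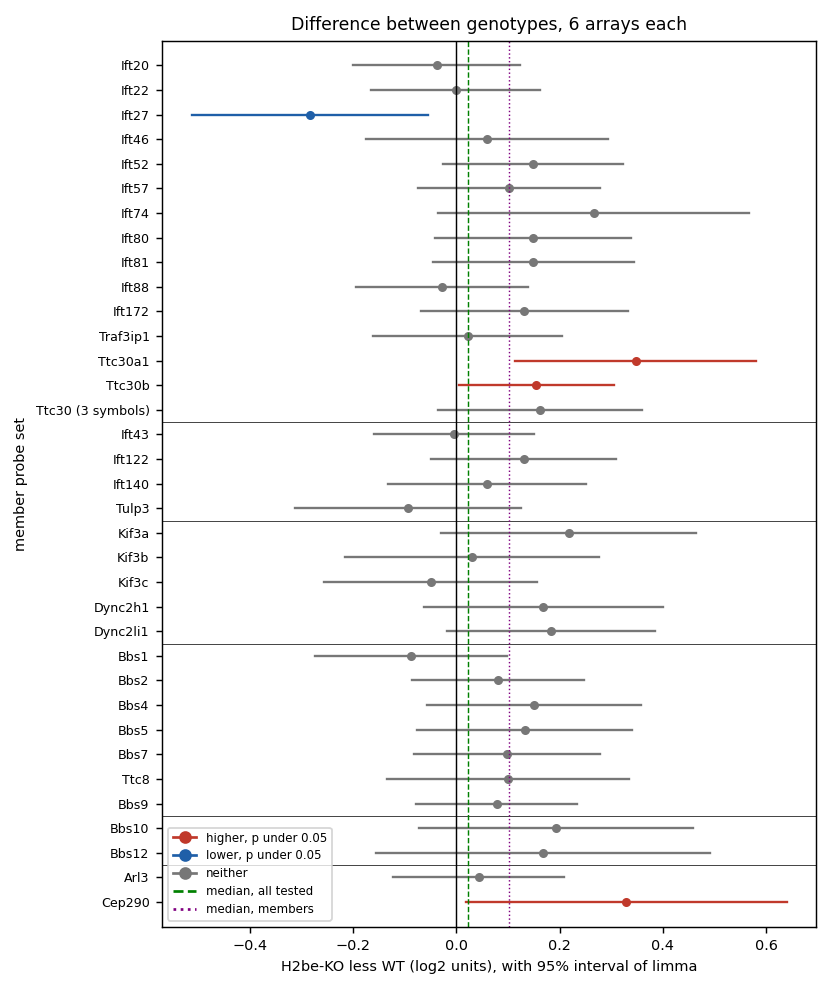
Difference of H2be-KO less WT for each of the 35 member probe sets (log2 units, points) with the 95% interval of limma (bars), grouped from top to bottom into IFT-B, IFT-A and Tulp3, motors, BBSome, BBSome assembly, and gate and GTPase genes, with 6 arrays per genotype. The intervals of Ttc30a1, Ttc30b and Cep290 lie above zero and that of Ift27 below it, and the dotted line of the members' median (0.10) lies to the right of the dashed line for all tested probe sets (0.02).

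IFT-B, the particle that carries cargo towards the ciliary tip, had 15 member probe sets, of which 2 were called higher and 1 lower (3.78% and 1.77% of all tested probe sets), with a median difference of 0.13. Both higher calls were Ttc30 probe sets. The clearest difference was in the Ttc30 genes, which encode a tetratricopeptide-repeat subunit wrapped around the core of the particle. Ttc30a1 read 6.98, 7.11 and 7.25 (lowest, median and highest log2 signal) in H2be-KO and 6.49, 6.72 and 7.22 in WT. All WT arrays but replicate 6 lay below every H2be-KO array. The difference was 0.35 ± 0.11 (SE), a 1.27-fold higher signal with an interval of 1.08 to 1.50 (limma p = 0.0063, exact permutation p = 0.0152). Ttc30b read 10.18, 10.28 and 10.39 in H2be-KO and 10.06, 10.11 and 10.19 in WT, so that 5 WT arrays lay below every H2be-KO array and 4 H2be-KO arrays above every WT array. Its difference was 0.15 ± 0.07, or 1.11-fold (limma p = 0.0435, exact permutation p = 0.0087). Another probe set, annotated to Ttc30a2, Ttc30a1 and Ttc30b together, read 10.62, 10.71 and 10.73 in H2be-KO and 10.17, 10.57 and 10.74 in WT, with 4 WT arrays below every H2be-KO array. Its difference of 0.16 ± 0.09 missed the limma threshold (p = 0.102) but not that of the exact permutation test (p = 0.0476). The 3 genes are closely similar neighbours on mouse chromosome 2, and probes may be shared between their transcripts, so these probe sets are not 3 independent observations and the gene behind each signal is uncertain.

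Ift27, a Rab-like GTPase of IFT-B that helps the BBSome leave the cilium, was the member called lower. It read 8.12, 8.49 and 8.83 in H2be-KO and 8.60, 8.74 and 8.95 in WT. All H2be-KO arrays but replicate 3 lay below every WT array. The signal fell by 0.28 ± 0.11 (SE), to 0.822-fold with an interval of 0.701 to 0.963 (limma p = 0.0185, exact permutation p = 0.0238). Hspb11, which encodes the partner protein with which Ift27 forms a pair, read 9.46 in H2be-KO and 9.35 in WT and so differed by 0.11 (limma p = 0.326, exact permutation p = 0.320). The sign and the unadjusted call of both Ttc30a1 and Ift27 held under all 25 alternatives run, with p from 0.00013 to 0.016 for Ttc30a1 and from 0.0032 to 0.0495 for Ift27. These 2 had the smallest limma p of the members, and every alternative used the same arrays or some of them. Their holding is therefore not independent support, and the adjusted limma p of each was 0.753.

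Ift74 and Ift81 form the tubulin-binding pair of IFT-B. Ift74 read 9.03, 9.46 and 9.59 in H2be-KO and 8.60, 9.16 and 9.53 in WT, and the groups overlapped (difference 0.27 ± 0.14, limma p = 0.0792, exact permutation p = 0.115). Ift81 read 9.67 and 9.52 on average, a difference of 0.15 (limma p = 0.122, exact permutation p = 0.0758). Ift52, a scaffold of the core, read 9.83, 9.96 and 10.01 in H2be-KO and 9.59, 9.86 and 9.94 in WT. Its difference was 0.15 ± 0.08 (limma p = 0.0904, exact permutation p = 0.0390), with 3 H2be-KO arrays above every WT array. Ift80, a subunit of the peripheral part of the particle, read 10.44, 10.59 and 10.63 in H2be-KO and 10.17, 10.43 and 10.73 in WT. Although 5 WT arrays lay below every H2be-KO array, WT replicate 6 was above them all, and the difference of 0.15 ± 0.09 did not pass either test (limma p = 0.118, exact permutation p = 0.0649). The other IFT-B members had limma p above 0.1. Ift172, which acts where trains turn at the tip, differed by 0.13, Ift57 by 0.10, Ift46 by 0.06 and Traf3ip1, a microtubule-binding subunit, by 0.02. Ift22, a second Rab-like GTPase of the particle, differed by −0.00 (interval −0.16 to 0.16). Ift88, whose loss abolishes cilia, differed by −0.03 (interval −0.19 to 0.14) and Ift20, which also binds the Golgi, by −0.04 (−0.20 to 0.12).

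IFT-A and Tulp3 bring membrane receptors into the cilium and return trains to its base. None of their 4 probe sets was called, where 3.78% of all tested probe sets were called higher and 1.77% lower. Ift122 differed by 0.13 (9.71 in H2be-KO, 9.58 in WT, limma p = 0.143, exact permutation p = 0.0931), Ift140 by 0.06 and Ift43 by −0.00 (interval −0.16 to 0.15). Tulp3, the adaptor between IFT-A and membrane lipids, read 8.89 and 8.98, a difference of −0.09 with an interval of −0.31 to 0.13.

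Of 5 motor genes none was called, where 3.78% of all tested probe sets were called higher and 1.77% lower. A positive difference was found in 4 (80%), against 56.2% of all, with a median of 0.17. Kif3a encodes the subunit shared by all heterotrimeric kinesin-2 motors. It read 8.82, 9.37 and 9.45 in H2be-KO and 8.86, 9.06 and 9.36 in WT. H2be-KO replicate 4 was the lowest of all 12 arrays, while 3 H2be-KO arrays exceeded every WT array (difference 0.22 ± 0.12, limma p = 0.0812, exact permutation p = 0.0952). Its alternative partners Kif3b and Kif3c differed by 0.03 and −0.05. Dync2li1, a light intermediate chain of dynein-2, read 8.98, 9.19 and 9.25 in H2be-KO and 8.73, 8.98 and 9.16 in WT, with 3 WT arrays below every H2be-KO array (difference 0.18 ± 0.09, limma p = 0.0718, exact permutation p = 0.0693). Dync2h1, the heavy chain that holds the motor domain, read 9.77 and 9.60 on average, a difference of 0.17 (limma p = 0.142, exact permutation p = 0.152).

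Of the 7 BBSome subunits none was called, where 3.78% of all tested probe sets were called higher and 1.77% lower. A positive difference was found in 6 (85.7%), against 56.2% of all, with a median of 0.10. The positive differences ran from 0.08 in Bbs9 and Bbs2, through 0.10 in Bbs7 and Ttc8 and 0.13 in Bbs5, to 0.15 in Bbs4 (limma p = 0.143, exact permutation p = 0.123). Bbs1, the subunit that contacts the recruiting GTPase Arl6, was the exception at −0.09 (interval −0.27 to 0.10). In Bbs1, WT replicate 4 was the highest array of all, the reverse of its place in most members. No interval of the 7 subunits reached beyond −0.27 or 0.36. Bbs10 and Bbs12 encode chaperonin-like proteins that help the BBSome assemble. Bbs10 read 7.24 ± 0.25 in H2be-KO arrays and 7.04 ± 0.20 in WT arrays, 0.19 apart (limma p = 0.143, exact permutation p = 0.173). Bbs12 read 7.27 ± 0.28 and 7.10 ± 0.30, 0.17 apart (limma p = 0.288, exact permutation p = 0.344).

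Cep290 encodes a large protein of the transition zone, the gate at the base of the cilium. Its signal was 8.09, 8.34 and 8.63 in H2be-KO and 7.55, 7.96 and 8.59 in WT. The 4 WT arrays other than replicates 1 and 6 lay below every H2be-KO array. The difference was 0.33 ± 0.15 (SE), or 1.26-fold with an interval of 1.01 to 1.56 (limma p = 0.0395), but the exact permutation test did not call it (p = 0.0671). Arl3, a small GTPase that releases lipid-bearing cargo inside the cilium, read 11.70 ± 0.06 and 11.65 ± 0.13, a difference of 0.04 with an interval of −0.12 to 0.21. The brightest member probe sets were those of Arl3, Bbs2 and Ift43 (mean over all arrays 11.68, 11.01 and 11.01) and the dimmest those of Ttc30a1, Bbs10 and Bbs12 (6.94, 7.14 and 7.19). Such signals depend on each set's own probes and do not rank the transcripts.

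**Figure D2:**
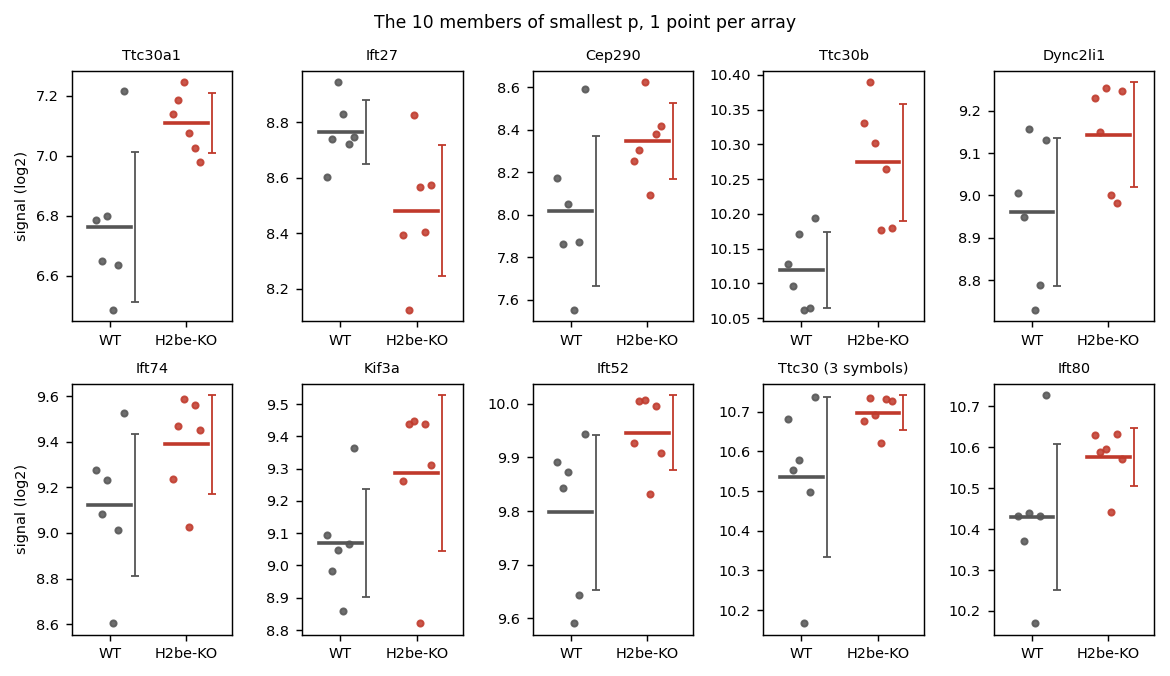
Log2 signal of each array (points) for the 10 members of smallest limma p, with the group mean (line) and SD (bar beside it), WT in grey and H2be-KO in red, 6 arrays each and a separate vertical axis per gene. Ift27 is the panel where most H2be-KO points lie below the WT points, and in Ttc30a1 and Ift80 a single high WT array, replicate 6, overlaps the H2be-KO group.

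WT replicates 4 and 6 stood at opposite ends of the members' spread. WT replicate 4 was the lowest of the 12 arrays in 22 of the 35 members, where it was lowest in 21.5% of all tested probe sets, and it was the lowest WT array in 26. WT replicate 6 was the highest of all 12 in 10 members (9.54% of all probe sets) and the highest WT array in 23. H2be-KO replicate 3 was likewise the highest of all in 10 members (14.5% of all probe sets), and H2be-KO replicate 4 was the lowest H2be-KO array in 18. Averaged over the 35 members and taken as the deviation from each member's mean, the WT arrays ran from −0.25 (replicate 4) to 0.13 (replicate 6), with a mean of −0.05 ± 0.12 (SD). The H2be-KO arrays ran from −0.07 (replicate 4) to 0.14 (replicate 3), with a mean of 0.05 ± 0.07, so the groups overlapped. Without WT replicate 4 the median difference of the members was 0.06, against 0.02 for all probe sets, with 25 positive and 1 called higher (58.3% and 2.76% of all). Without WT replicate 6 it was 0.16, with 28 positive and 9 called higher (53.1% and 8.05% of all). Without both arrays, an alternative chosen after their values were seen, the median was 0.09 with 26 positive and 4 called higher, namely Ttc30a1, Cep290, Ttc30b and Ift80, against 4.75% of all, and Ift27 was still called lower.

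**Figure D3:**
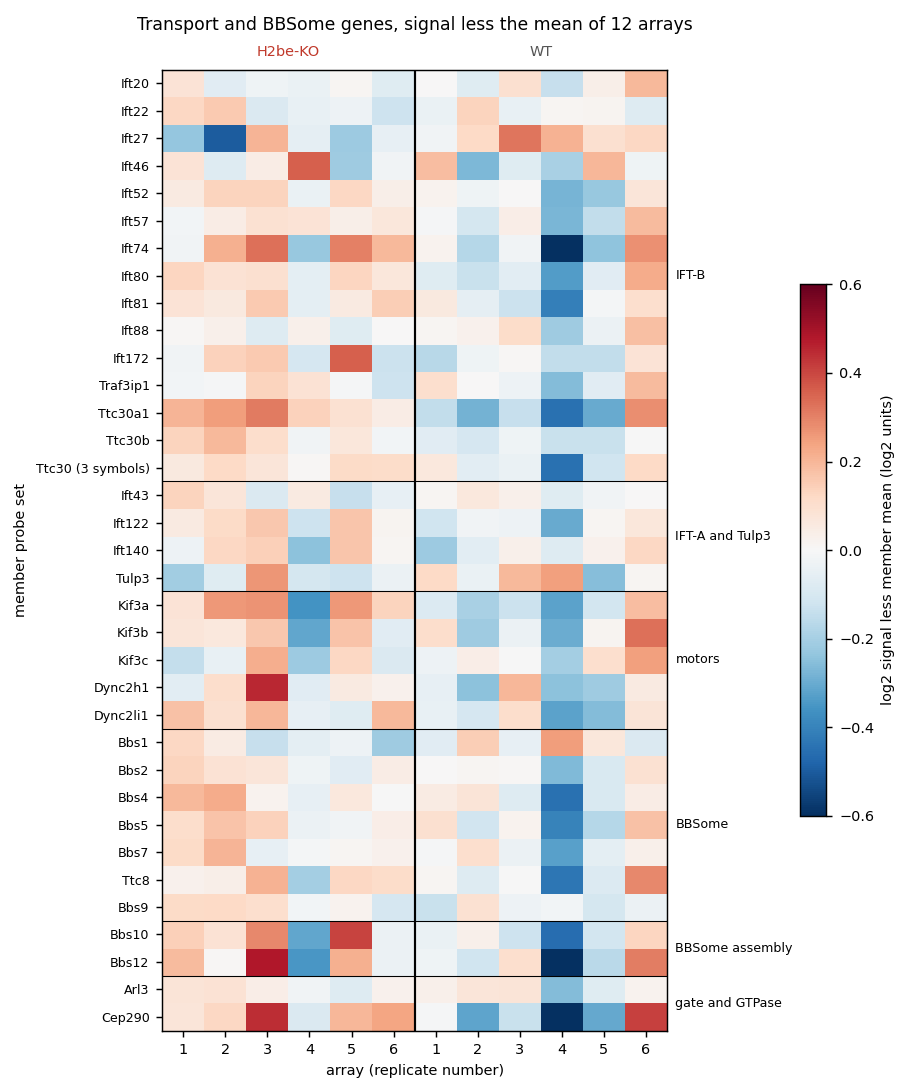
Signal of each of the 35 member probe sets in each of the 12 arrays, as the deviation from that member's mean (log2 units, red above and blue below, colours capped at 0.6), with H2be-KO arrays left and WT arrays right of the vertical line. The column of WT replicate 4 is blue in most rows and that of WT replicate 6 mostly red, and in the H2be-KO columns Ift27 is below its mean in all but replicate 3, most deeply in replicates 1, 2 and 5.

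The calls of Cep290 and Ttc30b lay near the threshold. Cep290 lost its call when any one of H2be-KO replicates 2, 3, 5 or 6 or of WT replicates 2, 3, 4 or 5 was left out, and its difference was 0.24 without WT replicate 4 and 0.44 without WT replicate 6. Ttc30b lost its call without any one of H2be-KO replicates 1, 2, 3 or 5 or of WT replicates 1, 2, 4 or 5, with its difference between 0.13 and 0.17 as single arrays were left out, and also after quantile normalization (difference 0.11) or median centring (0.14), though the exact permutation test called it on the deposited values. The difference of Ift27 ran from −0.35 to −0.21 as single arrays were left out and that of Ttc30a1 from 0.29 to 0.44.

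Promoters of the member genes were read from RefSeq on assembly GRCm38.p6, as windows from 250 bases before to 50 bases after the annotated start, and 30 of the 35 genes had a window. They are shown because the members are named for one organelle, and RFX factors are known to bind a motif, the X-box, in promoters of many ciliary genes. The 6-base core GTTGCC, sought on both strands, was in 13 of 30 member windows (43.3%) and in 12.5% of all 32851 windows. A paired form, GTNNCC and GGNAAC with 2 bases between them, was in 6 (20%), those of Ift22, Ift57, Ttc30a2, Bbs1, Bbs4 and Bbs7, against 1.29% of all, and a stricter form beginning GTTNCC was in those of Ttc30a2 and Bbs7 (6.67%) against 0.451%. The spellings overlap each other and were chosen after counts of several had been seen. Member windows had a median GC content of 58.8%, and all windows 52.7%. Stretches of 60 bases around the stricter form, with the motif in capitals and the sequence written 5′ to 3′ on the strand of the gene, were as follows, the first at chr2:75978167-75978226 (minus strand) with the motif starting at position −24 relative to the gene start and the second at chr3:36613474-36613533 (minus strand) with it at −121.
Ttc30a2: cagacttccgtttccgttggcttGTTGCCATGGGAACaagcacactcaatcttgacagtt
Bbs7: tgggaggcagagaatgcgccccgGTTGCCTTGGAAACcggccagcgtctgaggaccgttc

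The windows of the genes with the largest differences are given to show what lies before them. That of Ttc30a1 was at chr2:75981918-75982217 (minus strand), that of Ift27 at chr15:78174032-78174331 (minus strand) and that of Cep290 at chr10:100487332-100487631 (plus strand). Capitals mark the core GTTGCC, which was found only in the window of Ift27 among these 3, starting at position −9. A match is a run of letters and not a measured binding site. Among all members with the core, differences ran from −0.28 in Ift27 to 0.22 in Kif3a, and Ttc30a2 was named only by the shared probe set. Any part of the motif in the differences was not tested.
Ttc30a1: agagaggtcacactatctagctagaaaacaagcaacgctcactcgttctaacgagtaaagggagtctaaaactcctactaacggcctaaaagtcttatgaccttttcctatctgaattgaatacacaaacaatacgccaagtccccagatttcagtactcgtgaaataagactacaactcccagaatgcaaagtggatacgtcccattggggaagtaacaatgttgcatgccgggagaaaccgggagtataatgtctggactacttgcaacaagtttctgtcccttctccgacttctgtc
Ift27: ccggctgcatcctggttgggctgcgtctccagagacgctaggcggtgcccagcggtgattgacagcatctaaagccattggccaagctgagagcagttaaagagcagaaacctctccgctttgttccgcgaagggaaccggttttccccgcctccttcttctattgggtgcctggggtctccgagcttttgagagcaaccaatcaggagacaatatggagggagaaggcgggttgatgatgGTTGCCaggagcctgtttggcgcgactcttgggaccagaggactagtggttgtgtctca
Cep290: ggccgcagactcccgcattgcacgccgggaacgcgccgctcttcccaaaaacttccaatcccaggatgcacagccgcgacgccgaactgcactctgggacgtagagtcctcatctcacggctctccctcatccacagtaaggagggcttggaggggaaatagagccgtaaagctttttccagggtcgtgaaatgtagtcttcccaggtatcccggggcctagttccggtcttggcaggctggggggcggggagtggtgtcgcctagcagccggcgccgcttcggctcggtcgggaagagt

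Genes that work with the members but fall outside the naming rule were read against the 3.78% of all tested probe sets called higher and 1.77% called lower. Of 3 further IFT-B probe sets, Cluap1 was called higher (8.48 in H2be-KO, 8.22 in WT, difference 0.26, limma p = 0.0265, exact permutation p = 0.0195), while Ttc26 differed by 0.19 and Hspb11 by 0.11 without a call. Of 4 further dynein-2 probe sets, 1 of the pair for Tctex1d2, a light chain, was called higher (8.44 and 8.16, difference 0.28, limma p = 0.0349, exact permutation p = 0.0606), and the other differed by 0.13 (limma p = 0.135). The remaining IFT-A subunits (3 probe sets, Wdr35 at 0.12, Ttc21b at 0.21 and Wdr19 at 0.07) and kinesin-2 subunits (Kifap3 at 0.13 and Kif17 at 0.07) were all positive with no call. No call was made among 4 probe sets of BBSome partners (2 positive, Lztfl1 at 0.15 and −0.00, Mkks at 0.07). The same held for 8 of ciliary GTPases and their partners (7 positive, Rp2 at 0.19, Rab11a at 0.18, Rab3ip at 0.14). It also held for 19 of the transition zone (10 positive, Tmem17 at 0.22, Iqcb1 at 0.25, Rpgr at 0.18). Nor was any of 22 of basal bodies and ciliogenesis called (12 positive, Ccp110 at 0.20, Cep83 at 0.20, Rfx2 at −0.18). The median differences of these lists were 0.03, 0.05, 0.01 and 0.04, near the 0.02 of all probe sets. The proteins that fill the olfactory cilium, in 16 probe sets of the transduction pathway, also had no limma call (median 0.03). Slc24a4, the sodium-calcium exchanger, was at −0.13 (exact permutation p = 0.0498) and Ric8b at 0.13. Of the probe sets of Cngb1, 1 was at 0.15 and the others were at −0.16, −0.06 and −0.05. Adcy3, the cyclase, differed by −0.08 (exact permutation p = 0.104), Cnga2, a channel subunit, by 0.10 (exact permutation p = 0.145) and Omp by 0.00.

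Markers of the cells that bear the cilia were set beside these values. None of 17 mature olfactory neuron probe sets was called, and their mean deviation ran from −0.15 to 0.10 in H2be-KO arrays and from −0.04 to 0.02 in WT arrays. In WT replicate 4, where the members stood at −0.25, these markers stood at −0.04, immature neuron markers at −0.15 and horizontal basal cell markers at 0.44. The other marker lists in that array ran from −0.39 (bone and tooth) to 0.23 (red blood cells). Of 33 probe sets of multiciliated respiratory cells, 12 were positive, with a median of −0.08. Foxj1 was at −0.18 (limma p = 0.0624, exact permutation p = 0.0563), and Mlf1, higher by 0.20 (limma p = 0.0283), was the 1 probe set called. The mean deviation of these ciliated cell markers ran from −0.19 to 0.07 in H2be-KO and from −0.15 to 0.16 in WT, and was 0.14 in WT replicate 4 and 0.13 in WT replicate 6. Of the 10 immature neuron probe sets, 6 were positive (60%, against 56.2% of all tested probe sets) and 4 negative, down to −0.11 in Ncam1. Their median difference was 0.12, where that of the members was 0.10. Medians of the other marker lists ran from −0.13 (horizontal basal) to 0.14 (bone and tooth, 7 of 8 positive). Red blood cell markers stood at 0.11 (6 of 6 positive) and sustentacular markers at 0.08 (5 of 7), so nearness to the members was not particular to immature neurons. The 1 called was Gap43 (higher by 0.25), part of whose sequence the H2be-KO allele carries. Whether that part adds to the Gap43 signal was not tested. All 5 horizontal basal cell probe sets were negative, with a median of −0.13. The calls among 6 globose basal and 5 horizontal basal cell probe sets were Top2a, higher by 0.32, and Itgb4, lower (−0.26), and there was no call among 7 sustentacular, 8 gland and goblet, 8 macrophage, 8 bone and tooth, or 6 red blood cell probe sets. The part of cell composition in the members' differences was not tested.

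**Figure D4:**
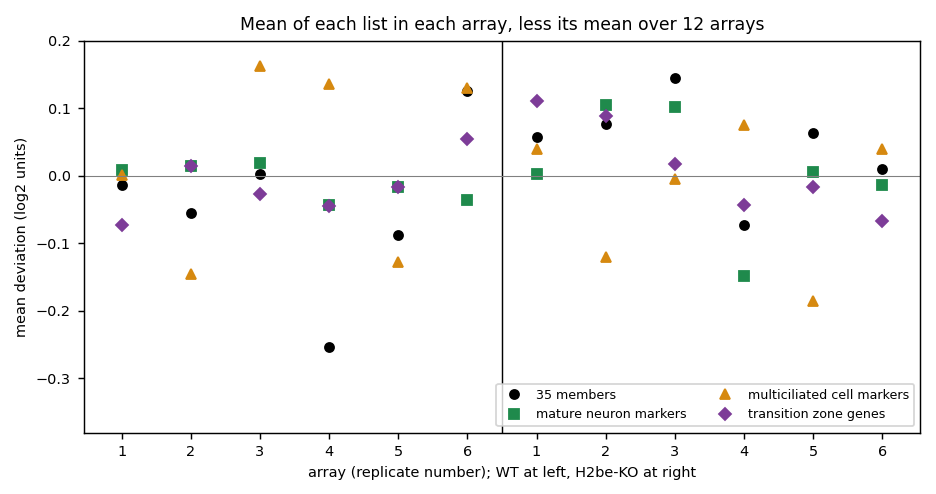
Mean log2 signal of 4 gene lists in each array, less the list's mean over the 12 arrays (log2 units), with WT arrays left and H2be-KO arrays right. The 35 members (circles) are lowest in WT replicate 4 (−0.25), where mature neuron markers (squares) are near zero and multiciliated cell markers (triangles) are above it (0.14). Diamonds are transition zone genes.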

How the data were processed

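RNA of whole MOE from pools of 2 mice was measured on the Affymetrix array Mouse Gene 1.0 ST. The authors screened the scanner files with arrayQualityMetrics, summarised probes with IterPLIER and applied sketch-quantile normalization in Affymetrix Expression Console, and deposited log2 signals for 35556 probe sets in 12 arrays. Versions are not given in the sources used here. Because the arrays were normalised to each other, a change shared by most transcripts would be removed at least in part. The deposited values kept a small common shift, with a median difference of 0.02 over all tested probe sets and 56.2% of them positive. Arrays give no read depth, and precision is limited by how many there were.

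Genotypes were read from the sample titles. The 6612 control probe sets were left out. Of 28944 others, 21789 had 1 gene symbol, 1621 several and 5534 none. The 28151 whose log2 signal averaged above 5 across the arrays were fitted in R 4.3.3 with limma 3.58.1 (lmFit and eBayes, genotype only, two-sided), with Benjamini-Hochberg adjustment over all of them. A call is an unadjusted p under 0.05. Exact permutation p-values are two-sided over 924 choices of arrays, with a smallest possible value of 0.0022. The fit was tested on simulated data with independent noise in each probe set. Shifts shared by many probe sets of an array were not simulated, so that test does not cover them. The members, gene lists and alternatives were chosen with earlier results of these data known. By rule, all called members and the 10 of smallest p were given by array range, the other members by difference, and up to 3 genes of each pathway list were named. Alternatives changed the filter, floor, normalization, block, weights, moderation, sex covariate, averaging and test, and left out arrays. Promoter windows were searched with Python 3.11.15.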

Additional observations from a re-analysis of the deposited data

Results flagged for a closer look

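Among 80 sets of 6 arrays (each genotype in the 35 members, H2be and the 4 check genes), 7 had 1 array set apart from the rest, judged by its gap to the nearest array divided by the range of the set (Dixon's ratio) exceeding the 95% critical value for 6 values. About 1 in 20 sets passes it by chance. In H2be-KO, replicate 4 was low in Kif3a (8.82, nearest 9.26, ratio 0.7004) and in Ift80 (10.44, nearest 10.57, ratio 0.6787). Replicate 3 was high in Dync2h1 (10.14, nearest 9.79, ratio 0.6668) and in Tulp3 (9.20, nearest 8.90, ratio 0.6276). In WT, replicate 4 was low in Bbs4 (9.16, nearest 9.51, ratio 0.6767) and in Bbs7 (9.84, nearest 10.1, ratio 0.6265), and high in Foxj1 (9.68, nearest 9.44, ratio 0.7448). The cause was not tested.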

How the results depend on the processing

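The count of members called lower was 1 of 35 (2.86%) in all 25 alternatives, and Ift27 was that member each time. The share of all probe sets called lower ran from 1.11% (without WT replicate 4) to 5.51% (without WT replicate 6), so this count was not always above it. The count called higher was 3 in the reported fit (3.78% of all probe sets), 5 with a replicate block (7.24% of all probe sets), 7 with array weights (9.57%), 1 without both H2be-KO arrays 1 and 6 (2.58%), and 1 to 9 as single arrays were left out (1 without replicate 2 or 3 of H2be-KO or replicate 2, 4 or 5 of WT, 7 without H2be-KO replicate 4, where 7.94% of all were, and 9, against 8.05%, when WT replicate 6 was dropped). Over all probe sets the count of calls, 1563, became 2990 with the block and 4099 with weights, and 836 to 3817 as single arrays were left out. The median difference of the members stayed positive, from 0.06 to 0.16, with 25 to 29 members positive, while that of all probe sets turned to −0.00057 under quantile normalization. The H2be difference stayed negative, from −0.29 to −0.19 as single arrays were left out and lost its call in 3 of these, at −0.21 without H2be-KO replicate 4 and also −0.21 without replicate 6 of that genotype, and at −0.19 when WT replicate 3 was dropped. It was also lost without H2be-KO arrays 1 and 6 together (−0.20) and WT arrays 4 and 6 together (−0.21). Why these values moved was not tested. The replicate numbers only partly paired the arrays: same-numbered arrays correlated in their deviations at 0.0896, 0.592, 0.393, 0.319, 0.0251 and 0.377, and 4 of 6 matched their own number best. With the replicate block, Kif3a, Dync2li1 and Ift74 joined the calls and Ttc30b left them. With 6 arrays per genotype the median standard error was 0.09 for the members and 0.11 for all probe sets.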
